A study of Mus musculus with 9 samples.

Results

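The constitutive proteasome subunit genes are the genes of the 20S core particle and the 19S cap, without the inducible immunoproteasome subunits. They were chosen by gene symbol, and all 31 were found among the 24421 genes of the deposited tables: 7 genes of the alpha ring, 7 of the beta ring, 6 cap ATPases and 11 non-ATPase cap subunits. RNA sequencing covered 9 mouse libraries. The 2 kidney libraries were 1 from a tumour-bearing mouse given PBS and 1 from a wild type mouse given PBS. The 7 muscle libraries were 2 of wild type PBS and 1 each of wild type DKK1, tumour PBS, tumour MDC and a beta-arrestin knockout given PBS or DKK1. The protein DKK1 inhibits Wnt signalling from outside the cell and binds the receptor LRP6, and the title of the series places the work in cancer cachexia, the loss of muscle that accompanies a tumour. The tumour, the agent abbreviated MDC, the beta-arrestin gene and the strain and age of the mice are not named in the labels.

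The proteasome is the protease that degrades proteins marked with ubiquitin. Its core is a barrel of stacked rings: the outer alpha rings form the gate, and the inner beta rings hold the catalytic sites of Psmb6 (caspase-like), Psmb7 (trypsin-like) and Psmb5 (chymotrypsin-like). The cap binds ubiquitin chains, removes them with the deubiquitinase Psmd14 and unfolds the substrate with a ring of ATPases, Psmc1 to Psmc6. In wasting muscle, the ubiquitin ligases Fbxo32 (atrogin-1) and Trim63 (MuRF1) mark muscle proteins for this pathway, and higher proteasome subunit transcripts are a known feature of many atrophy models.

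Total counts were from 21358854 to 44421797 per library, and every subunit gene had at least 921 counts in every library, so all 31 passed the filter on low counts. The subunit genes took from 0.289% (tumour kidney) to 0.400% (tumour MDC muscle) of all counts. Kidney tubule markers summed to between 19160 and 37990 CPM (counts scaled to library size) in the kidney libraries and to at most 98.4 CPM in muscle, and skeletal muscle markers summed to at least 116600 CPM in muscle and at most 428 CPM in kidney. Arrb1 and Arrb2 were at 20.5 and 9.61 CPM in the PBS library labelled knockout, and at 28.2 and 7.98 CPM in the DKK1 one. Wild type PBS muscle was at 18.8 ± 2.12 CPM for Arrb1 and 7.72 ± 0.186 CPM for Arrb2 (SD, n = 2), so neither transcript was lower in the libraries labelled knockout. The table names carry a set letter: A for kidney, B for wild type muscle library 1 and both tumour muscle libraries, and C for wild type library 2, wild type DKK1 and both libraries labelled knockout. Only wild type PBS muscle had a second library, and its label does not say whether the pair came from separate animals, so p-values measure the spread between these libraries alone.

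The subunit genes were among the more abundant transcripts of both tissues. Reads per kilobase of gene length, scaled to library size (RPKM, scaled by TMM over the 9 libraries) allow levels of different genes to be compared. The median subunit gene was at 55.8 RPKM in wild type kidney, 45.7 RPKM in tumour kidney, 102 RPKM in wild type muscle library 1 and 70.5 RPKM in library 2. The other muscle libraries had medians of 109 (tumour MDC), 93.4 (tumour PBS), 84.9 (labelled knockout PBS), 74.4 (labelled knockout DKK1) and 64.8 RPKM (wild type DKK1). These medians lay between percentiles 92.0 and 95.6 of all genes of their library. Although the subunits enter the particle in equal numbers, the highest transcript exceeded the lowest by between 4.63-fold (wild type muscle library 2) and 7.35-fold (tumour MDC muscle).

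**Figure D1:**
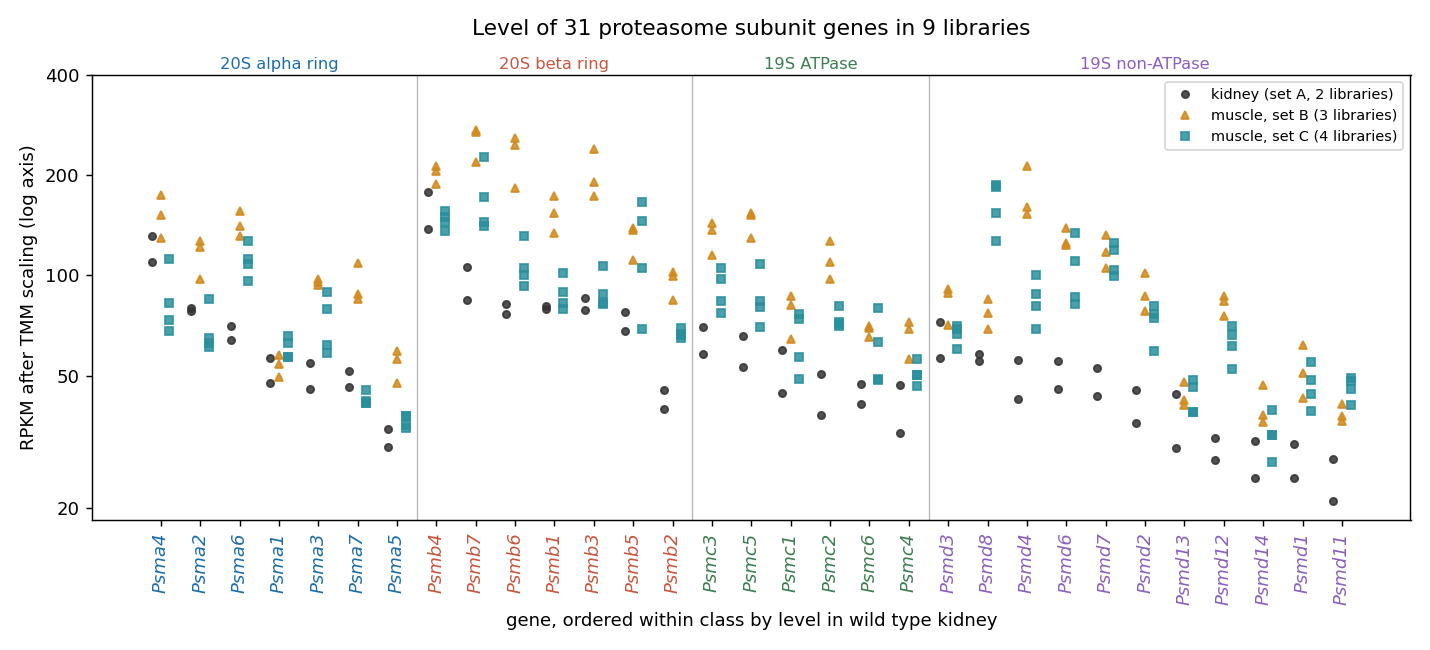
Level of each subunit gene in RPKM after TMM scaling (log axis), with circles for 2 kidney libraries, triangles for 3 set B muscle libraries and squares for 4 set C muscle libraries. In kidney Psmb4 was highest and Psmd11 lowest, and the set C squares of Psmd8 lie above its set B triangles.

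A beta ring gene was highest in wild type kidney and in the mean of wild type PBS muscle, but not in every library. The cap gene Psmd8 was highest in wild type muscle library 2 at 154 RPKM and in labelled knockout DKK1 muscle at 186 RPKM. In wild type kidney the 3 highest were Psmb4, a non-catalytic beta subunit, at 179 RPKM, Psma4 at 132 RPKM and Psmb7 at 106 RPKM. The 3 lowest in wild type kidney were Psmd11, a lid subunit that helps hold the cap to the core, at 28.1 RPKM, Psmd1, the large scaffold of the cap base, at 31.2 RPKM and Psmd14 at 31.8 RPKM. In wild type PBS muscle the highest were Psmb7 at 209 ± 90.7 RPKM, Psmb6 at 179 ± 111 RPKM and Psmb4 at 178 ± 39.8 RPKM (SD, n = 2), which do not differ beyond their spread. The lowest there were Psmd14 at 40.1 ± 9.76 RPKM, Psmd11 at 41.6 ± 5.48 RPKM and Psmd13 at 43.5 ± 6.44 RPKM (SD, n = 2), also within each other's spread. The order of the genes was similar between the tissues: over the 31 genes, log2 levels in wild type kidney correlated with wild type muscle library 1 at r = 0.79 (Spearman 0.82) and with library 2 at r = 0.68 (Spearman 0.66), a description across genes that share libraries and gene lengths.

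The catalytic subunits differed more between muscle libraries than between the kidney libraries. Psmb6 was at 82.1 RPKM in wild type and 76.6 RPKM in tumour kidney, at 258, 182 and 247 RPKM in the set B muscle libraries (wild type 1, tumour PBS, tumour MDC), and at 100, 93.1, 131 and 106 RPKM in set C (wild type 2, wild type DKK1, labelled knockout PBS, labelled knockout DKK1). All 7 muscle libraries thus stood above both kidney libraries, and the set B range did not overlap the set C range. Psmb7 was at 106 and 84.5 RPKM in wild type and tumour kidney, at 273, 219 and 269 RPKM in set B and at 145, 141, 227 and 172 RPKM in set C, in the same order of libraries. Here the labelled knockout PBS library reached into the set B range. Psmb5 was at 77.5 and 68.3 RPKM in kidney, at 139, 111 and 137 RPKM in set B and at 68.9, 105, 166 and 146 RPKM in set C. Psmb5 alone of the catalytic genes was highest in the libraries labelled knockout, and its wild type library 2 value lay within the kidney range.

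Between tissues, subunit transcripts were lower in kidney. Both kidney libraries are of set A and all muscle libraries of set B or C. Tissue and set therefore cannot be told apart in any comparison of kidney with muscle. In the wild type comparison, 28 of 31 genes were lower in kidney than in the mean of wild type PBS muscle, with a median difference of -0.56 in log2 CPM (-0.81 against library 1 and -0.19 against library 2). Kidney was below both wild type muscle libraries for 23 genes, where 36% of all genes with 100 or more counts were, and above both for 0, where 46.7% were. The beta ring had a median of -0.67, the non-ATPase subunits -0.83, the ATPases -0.49 and the alpha ring -0.20. In bulk tissue, fewer cells of a type and less RNA per cell cannot be told apart. Scaling by total counts alone moved the median of all genes from 0.13 to 0.71 and that of the subunit genes to 0.043, so the sign of the difference depends on the scaling. The subunit median lay 0.69 below the all-genes median under TMM and 0.67 below it under total counts, a gap that scaling can hardly change. Genes of at least the level of the lowest subunit gene had a median of -0.53, close to that of the subunit genes.

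Of the genes furthest apart in wild type tissue, Psmd12, a lid subunit, was at 32.5 RPKM in kidney against 84.1 and 61.5 RPKM in muscle libraries 1 and 2 (log2 difference -1.14, SE 0.65). Psmb2, a non-catalytic beta subunit, was at 39.7 against 102 and 69.7 RPKM (-1.09, SE 0.64), and Psmd7, the partner of Psmd14, was at 52.8 against 117 and 104 RPKM (-1.07, SE 0.66). Kidney lay below both muscle libraries for each of these. At the other end, Psma4 was at 132 RPKM in kidney against 152 and 73.7 RPKM in muscle (0.32, SE 0.68), Psmd13 at 44.0 against 48.0 and 38.9 RPKM (0.025, SE 0.59) and Psmb4 at 179 against 206 and 150 RPKM (0.022, SE 0.64). In these 3 genes the kidney value lay between the muscle pair. edgeR's quasi-likelihood test with Benjamini-Hochberg adjustment called 0 of the 31 genes, where 8.45% of all genes were called higher and 4.75% lower in kidney. The smallest adjusted p of a subunit gene was 0.322, the count at an unadjusted p under 0.05 was 0, and 0 genes were also called by DESeq2 and by limma-voom.

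In tumour-bearing mice given PBS, all 31 genes were lower in kidney than in muscle, as were 46.2% of all genes with 100 or more counts. The median was -0.89 (all genes 0.088), and 12 genes were lower by 2-fold or more, where 21.7% of genes with 100 or more counts were. Genes of at least the level of the lowest subunit gene had a median of -0.57. Of these 2788 genes, 1930 were lower in kidney and 979 were lower by 2-fold or more. Psmd4, a ubiquitin receptor of the cap, stood furthest apart at 42.7 RPKM in kidney and 153 RPKM in muscle (log2 difference -1.84, SE 0.82). Psmd6, a lid subunit, was at 45.7 and 124 RPKM (-1.44, SE 0.765) and Psmd12 at 28.0 and 75.7 RPKM (-1.43, SE 0.73). Psma1, an alpha ring gene, was closest to equal at 47.7 and 49.6 RPKM (-0.055, SE 0.68), followed by Psma4 (-0.24) and Psma2 (-0.32). The catalytic genes gave -1.38 for Psmb7, -1.25 for Psmb6 and -0.70 for Psmb5. edgeR's test with Benjamini-Hochberg adjustment called 0 subunit genes, with a smallest adjusted p of 0.263, where 4.9% of all genes were called higher and 3.28% lower. No subunit gene had an unadjusted p under 0.05 in edgeR, 1 had in DESeq2, and neither DESeq2 nor limma-voom called any. Under total counts the subunit median was -0.45 with 5 genes higher in kidney, against an all-genes median of 0.52.

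Taking all libraries together, both kidney libraries lay below all 7 muscle libraries in RPKM for 18 of 31 genes, where 26.9% of genes with 100 or more counts did. The reverse held for 0 subunit genes, where 34.4% of genes did. The 18 comprised 8 of 11 non-ATPase genes, 4 of 6 ATPase genes, 3 of 7 beta ring genes and 3 of 7 alpha ring genes. Muscle set mattered to this count: against set B alone kidney was lower for 27 genes (32.9% of all genes tested), and against set C alone for 19 (30.4%), with Psma7 higher.

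Within kidney, the tumour library had slightly fewer subunit transcripts than the wild type library. With 1 library a group there is no replicate check and no test, and the intervals given are exact 95% intervals that cover counting error only. Of the 31 genes, 29 were lower in the tumour library, where 49.1% of genes with 100 or more counts were, with a median log2 difference of -0.26 (all genes 0.0013). For 27 genes the interval of the ratio lay below 1, for Psmb2 and Psmb3 it lay above 1, and for Psma2 and Psmb1 it held 1. No gene differed by 2-fold or more, where 5.69% of genes were higher and 4.03% lower by that much. The cap genes were further apart than the core genes, with medians of -0.33 for the 17 cap genes and -0.17 for the 14 core genes.

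The lowest ratios in tumour kidney were in the cap. Psmd13, a lid subunit, was at 62.3 CPM in the tumour and 90.3 CPM in the wild type library, a ratio of 0.690 (interval 0.657 to 0.725). Psmc4, an ATPase, was at 63.5 and 88.3 CPM (0.720, interval 0.685 to 0.756), and Psmc1, another ATPase, at 87.3 and 117 CPM (0.743, interval 0.712 to 0.775). The 2 genes above 1 were both in the beta ring. Psmb2 was at 50.5 and 44.2 CPM (1.14, interval 1.07 to 1.21) and Psmb3 at 81.9 and 75.8 CPM (1.08, interval 1.03 to 1.13). Psmb1, also a beta subunit, followed at 0.981 (interval 0.942 to 1.02). The catalytic genes had ratios of 0.933 for Psmb6, 0.882 for Psmb5 and 0.800 for Psmb7, and Psmb4 had 0.773, so the beta ring held the genes nearest to equal as well as genes in the range of the cap. Cell type markers also differed between these libraries: the 8 adipocyte markers summed to 1518 CPM in tumour and 149 CPM in wild type kidney, and the 9 measured neutrophil markers to 21.8 and 2.20 CPM. The 12 kidney tubule markers did not share a direction: Kap was at 2684 and 23805 CPM, 4 of the 12 were higher in tumour, among them Umod at 8033 and 3304 CPM, and without Kap they summed to 16470 and 14180 CPM. The part of these marker differences was not tested. The ribosomal RNA row Rn45s was 4.34 times, Rmrp 30.8 times, Rpph1 17.6 times and Lars2 2.55 times as high in tumour kidney, and with these 4 rows left out the subunit median was -0.263.

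**Figure D2:**
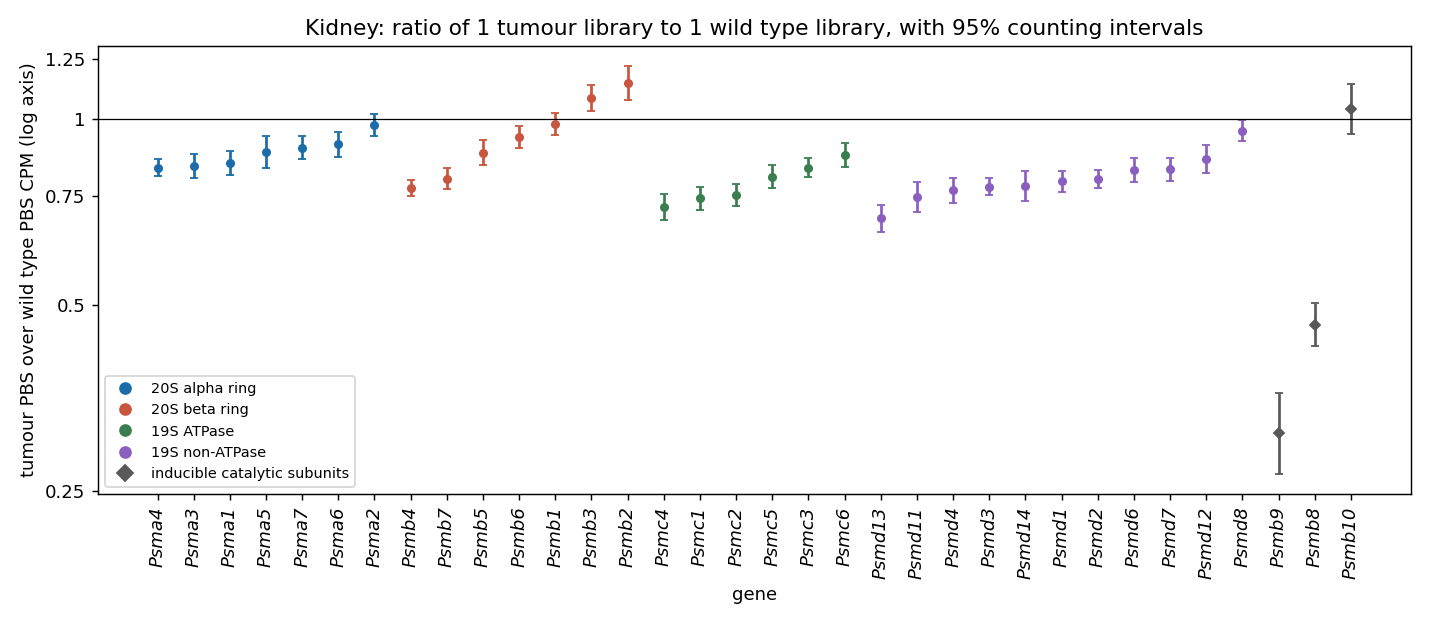
Ratio of CPM in the tumour PBS kidney library to the wild type PBS kidney library (log axis) for the 31 genes by class and for 3 inducible catalytic subunits, with 95% counting intervals. Cap genes sit between 0.690 and 0.957, Psmb2 and Psmb3 above 1, and Psmb9 and Psmb8 well below all constitutive genes.

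The inducible catalytic subunits, which replace Psmb6, Psmb7 and Psmb5 in the immunoproteasome, did not share a ratio in kidney. Psmb9, which replaces Psmb6, was at 5.29 CPM in tumour against 17.0 CPM in wild type kidney, a ratio of 0.311 (interval 0.267 to 0.360). Psmb8, which replaces Psmb5, was at 20.4 against 44.0 CPM (0.465, interval 0.429 to 0.503), and Psmb10, which replaces Psmb7, was at 21.2 against 20.5 CPM (1.04). As a share of the RPKM of its pair, Psmb9 made up 16.4% in wild type and 6.13% in tumour kidney. Psmb8 made up 26.1% and 15.7%, and Psmb10 10.4% and 13.1%.

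In muscle, the wild type PBS pair set the scale for every comparison. Subunit genes were lower in library 2 for 29 of 31, where 52.7% of genes with 100 or more counts were, with a median difference of -0.65. They were lower by 2-fold or more for 7 genes, where 12.1% of genes were. Psmb6 had the largest such difference, at 254 CPM in library 1 and 96.3 CPM in library 2 (-1.40). The exceptions were Psmd8, a lid subunit, at 99.4 and 215 CPM (1.11), the 1 gene higher by 2-fold or more, where 14.3% of genes were, and Psmd11 at 62.5 and 73.4 CPM (0.23). The median over alpha ring genes was -0.69, over beta ring genes -0.95, over ATPases -0.65 and over non-ATPase genes -0.34.

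The other muscle libraries followed the same division. For 18 of 31 genes all 4 set C libraries lay below all 3 set B libraries in CPM, where 20.5% of genes with 100 or more counts did, and for 2 genes, Psmd8 and Psmd11, all set C libraries lay above, where 15.9% did. The 18 were 6 of 7 alpha ring genes, 5 of 7 beta ring genes, 4 of 6 ATPases and 3 of 11 non-ATPase genes. Psmb3, a non-catalytic beta subunit, was at 117 to 164 CPM in set B and 53.8 to 70.9 CPM in set C, a mean log2 difference of -1.19. Psma7 in the alpha ring was at 129 to 162 CPM against 59.0 to 65.5 CPM (-1.17). Psmb6 was at 175 to 254 CPM against 90.6 to 123 CPM (-1.12), and Psmd4 at 190 to 267 CPM against 87.2 to 123 CPM (-1.08). In the opposite direction, Psmd8 was at 99.4 to 120 CPM in set B and 180 to 254 CPM in set C (1.03). Of the 11928 genes compared, 14.4% differed between the sets by as much as Psmd8 or more. Each treatment was found in 1 set only, apart from wild type PBS. In comparisons across the sets, set and treatment cannot be told apart outside that pair. Within a set each treatment has a wild type PBS library beside it, but with 1 library per group.

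Gene length moved with the set letter. Subunit genes are short: 29 of 31 lie in the shortest tertile of genes by the length given in the tables (up to 2208 bases). All genes of that tertile had a median set difference of -0.36, against 0.021 in the middle and 0.24 in the longest tertile, and 41.4% of them had all set C libraries below all set B libraries. The 29 short subunit genes had a median of -0.46 and 18 of them were so placed (62.1%). Over all 11928 genes, length and the set difference correlated at Spearman 0.42, and over the 31 subunit genes at 0.43, as descriptions across genes of the same libraries. The 15 skeletal muscle markers, none at 0, summed to between 205400 and 359300 CPM in set B and between 116600 and 231300 CPM in set C, so the ranges overlapped, and in set C 5 of the 15 lay below all set B libraries and 3 above. Fibroblast markers (8 of 8 detected) summed to 520 to 713 CPM in set B and 559 to 1818 CPM in set C, again with overlap, and 3 of the 8 lay above in set C. Macrophage markers also overlapped (56.3 to 160 against 140 to 237.8 CPM), with 5 of 10 above in set C. Neutrophil markers did not overlap, with 14.25 to 343.8 CPM in set B and 1.00 to 5.24 CPM in set C. Nor did the low sums of kidney tubule markers, with 17.5 to 98.4 against 6.68 to 10.1 CPM. The ribosomal RNA row Rn45s did not follow the sets, with 0.545% to 2.51% of counts in set B and 0.359% to 8.29% in set C. The part of gene length and of these markers in the subunit differences was not tested.

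The promoters of genes on both sides of this division are shown because the members moved together. Each is the 100 bases before the annotated start on mouse build GRCm38.p6 (RefSeq), 5′ to 3′ on the gene's strand, with no annotated exon inside. Psmb6 (chr11:70525257-70525356, plus strand) and Psmd4 (chr3:95042615-95042714, minus strand) were lower in set C, and Psmd11 (chr11:80428515-80428614, plus strand) was higher. Capitals mark TGACNNNGC, the core of the antioxidant-type element bound by Nrf1 and its relatives, in Psmb6, ATTGG, which is CCAAT read on the other strand, in Psmd4, and CTTCCGG, which is the ETS-type core CCGGAAG read on the other strand, in Psmd11.
Psmb6: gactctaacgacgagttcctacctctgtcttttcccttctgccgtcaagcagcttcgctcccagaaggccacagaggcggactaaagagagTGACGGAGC
Psmd4: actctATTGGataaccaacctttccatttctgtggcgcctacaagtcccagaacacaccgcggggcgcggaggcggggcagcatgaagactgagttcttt
Psmd11: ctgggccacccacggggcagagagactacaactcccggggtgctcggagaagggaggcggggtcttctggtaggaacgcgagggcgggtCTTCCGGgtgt
Both strands of the 250 bases before the start were searched in the 27 promoters listed for 25 of the subunit genes. CCGGAAG was in 37% of these promoters and in 6.91% of all 32851 promoters of the same length, CCAAT in 37% and 33.8%, and TGACNNNGC in 14.8% (Psmb6, Psmb5, Psmc6 and Psmd12) and 10.2%. TGACGTCA, the cyclic AMP element, was in 0 member promoters and 1.55% of all. CCGGAAG was found in genes lower in set C, such as Psmc2, and in Psmd11, which was higher there. A match describes letters and not binding.

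**Figure D3:**
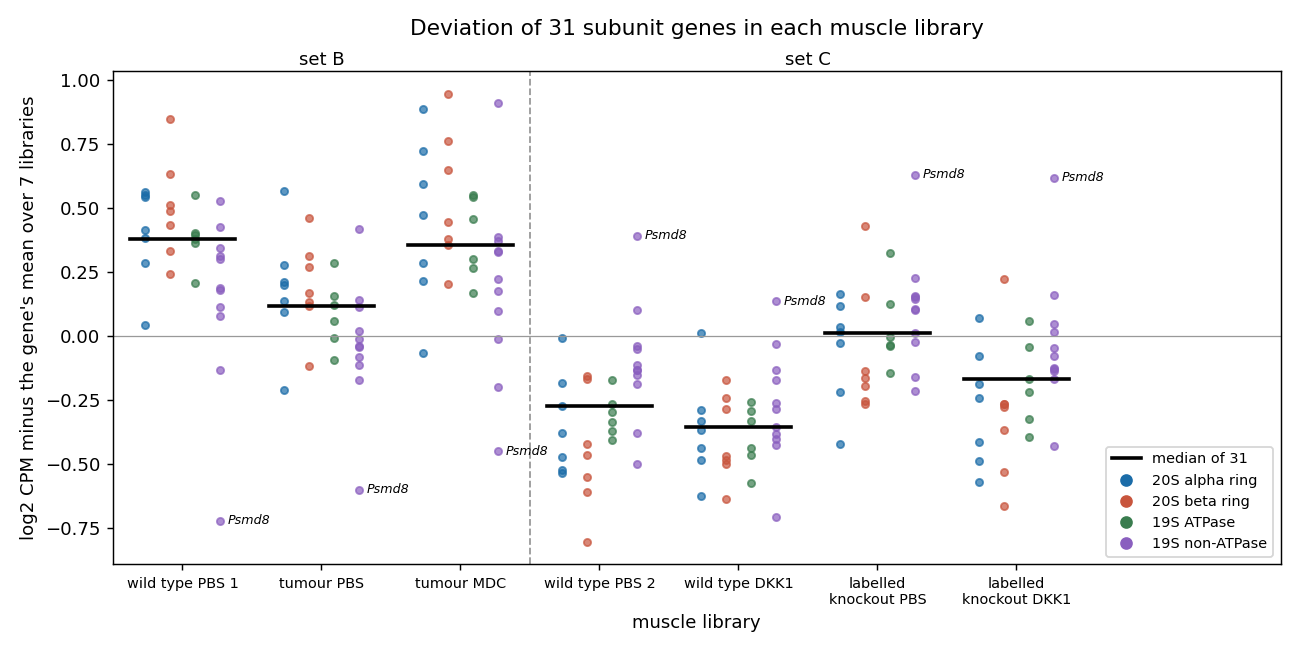
Deviation of each gene's log2 CPM from its own mean over 7 muscle libraries, by library and class, with black bars for the median of 31 genes. Medians lie from -0.36 (wild type DKK1) to 0.38 (wild type PBS 1), and Psmd8 moves against the others, below its mean in set B and above it in set C.

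Across the 7 muscle libraries most subunit genes varied together. Over the 465 pairs of genes, the median correlation of log2 CPM was r = 0.80, and 389 pairs were above 0. These are descriptions over 7 libraries that share the set division, and they carry no test. Psmc3, an ATPase (r = 0.996), Psma4 (0.991) and Psmb7 (0.985) followed the mean of the other members most closely. Psmd8 (-0.75), Psmd11 (-0.69) and Psma1 (-0.21) ran against it, and Psmb5 (0.53) and Psmd13 (0.58) followed it least among the rest. The wild type DKK1 library held the lowest of the 7 values for 20 genes, and tumour MDC and wild type library 1 held the highest for 17 and 9 genes. Neither these counts nor the pair correlations were made over all genes, so they are not shown to be particular to the subunit genes. The median SD of a subunit gene over the 7 libraries was 0.31 in log2 CPM, against 0.47 for all genes tested and 0.33 for genes of at least their level.

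Core and cap transcripts also stood in a different balance in the sets. The ratio of the median cap RPKM to the median core RPKM was 0.599 to 0.630 in set B, 0.769 to 0.983 in set C, and 0.569 (tumour) and 0.648 (wild type) in kidney. Core genes are mostly shorter than cap genes, and the set difference rose with gene length. The part of length in this balance was not tested. In wild type PBS muscle the beta ring median was 137 ± 76.0 RPKM, the alpha ring median 78.5 ± 24.5 RPKM, the ATPase median 81.4 ± 24.2 RPKM and the non-ATPase median 77.3 ± 9.64 RPKM (SD, n = 2).

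Tumour muscle lay between the wild type libraries. The comparison asks whether a tumour changes the machinery of protein breakdown in muscle, the question set by the title. Against the mean of the pair, tumour PBS muscle had a median difference of 0.085 over the 31 genes (all genes 0.030), with -0.27 against library 1 of its own set and 0.41 against library 2. Psma7 was higher than in both wild type libraries, at 130 CPM against 129 and 60.9 CPM (0.55, SE 0.67), where 25.5% of genes with 100 or more counts were higher than both. Psma1 and Psmd1 were lower than both (2 of 31, where 23.1% of genes were), with Psma1 at 57.6 CPM against 68.9 and 66.3 CPM (-0.23, SE 0.63). Psmb3 was at 117 CPM against 132 and 55.9 CPM (0.45, SE 0.69), Psmd4 at 190 against 205 and 101 CPM (0.40, SE 0.70), Psmd3 at 141 against 180 and 140 CPM (-0.17, SE 0.68) and Psmd8 at 108 against 99.4 and 215 CPM (-0.44, SE 0.74). The tumour value of these 4 lay within the wild type pair. By 2-fold or more against both, 0 subunit genes and 1.32% of genes with 100 or more counts were higher, and 0 subunit genes and 0.59% were lower. The catalytic genes gave 0.12 (Psmb7), 0.16 (Psmb6) and 0.17 (Psmb5), each negative against library 1 and positive against library 2. Neutrophil markers summed to 344 CPM in the tumour PBS library against 14.25 and 5.24 CPM in the wild type pair, and their part was not tested. Rn45s was at 5222 CPM against 24964 and 77294 CPM, and without the structural RNA rows the subunit median was 0.0998.

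edgeR's quasi-likelihood test with Benjamini-Hochberg adjustment called 0 subunit genes and 0% of all genes in tumour PBS muscle and in every other muscle comparison. In edgeR's test the adjusted p was 1 for each subunit gene in these comparisons, and 0 had an unadjusted p under 0.05 (the smallest was 0.235). Neither DESeq2 nor limma-voom called any subunit gene, though DESeq2 called other genes in some of these comparisons. The standard errors of a subunit gene's log2 difference between muscle groups were 0.615 to 0.853, so a 2-fold difference was within about 2 standard errors.

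Muscle of MDC-treated tumour mice held more subunit transcripts than muscle of PBS-treated tumour mice, in a comparison within set B. Of the 31 genes, 30 were higher, where 51.2% of genes with 100 or more counts were, and 1 was lower, where 48.8% were, with a median difference of 0.32. The median was 0.32 in the alpha ring, 0.32 in the beta ring, 0.32 in the ATPases and 0.22 in the non-ATPase genes. Genes of at least the members' level had a median of 0.11, and genes of the shortest tertile 0.065. Psmd1 was at 189 CPM with MDC and 130 CPM with PBS (0.54, SE 0.78), Psmd4 at 267 and 190 CPM (0.49, SE 0.82) and Psmb3 at 164 and 117 CPM (0.48, SE 0.80). Psmd11 was the exception at 59.7 and 66.5 CPM (-0.15, SE 0.72), and Psmd6 (152 and 149 CPM) and Psmd13 (62.1 and 59.1 CPM) were nearly level. The catalytic genes gave 0.45 (Psmb6), 0.32 (Psmb5) and 0.31 (Psmb7), and 0 genes passed 2-fold, where 1.18% of genes were higher and 3.25% lower by that much. Under total counts 18 genes were higher and the median was 0.033, with all genes at -0.28. The subunit median stood 0.31 above the all-genes median there and 0.32 under TMM, a gap that scaling can hardly change. Slow fibre markers (8, none at 0) summed to 1509 CPM with MDC and 251 CPM with PBS, skeletal muscle markers to 291200 and 205400 CPM, adipocyte markers to 491 and 954 CPM and neutrophil markers to 42.1 and 344 CPM, and their part was not tested. The ribosomal RNA row Rn45s was at 29358 and 5222 CPM and Lars2 at 923 and 128 CPM, and with these and 2 further structural RNA rows left out the subunit median was 0.306. Each side is 1 library, and edgeR's test called none.

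Against wild type PBS, the MDC library was above both wild type libraries for 17 of 31 genes, where 29.6% of genes with 100 or more counts were, and below both for Psmd11 and Psma1, where 25.6% were. The median was 0.32, with 0.018 against library 1 and 0.54 against library 2. Psmb3 stood highest at 164 CPM against 132 and 55.9 CPM (0.93, SE 0.68), followed by Psmd4 at 267 against 205 and 101 CPM (0.89, SE 0.69) and Psma7 at 162 against 129 and 60.9 CPM (0.87, SE 0.67). These 3 genes were above both wild type libraries, whereas the catalytic genes were above library 2 only, with 0.61 for Psmb6, 0.49 for Psmb5 and 0.43 for Psmb7. Psmd8 (-0.29), Psmd11 (-0.18) and Psma1 (-0.084) were at the low end. This comparison and that of tumour PBS share the wild type pair.

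**Figure D4:**
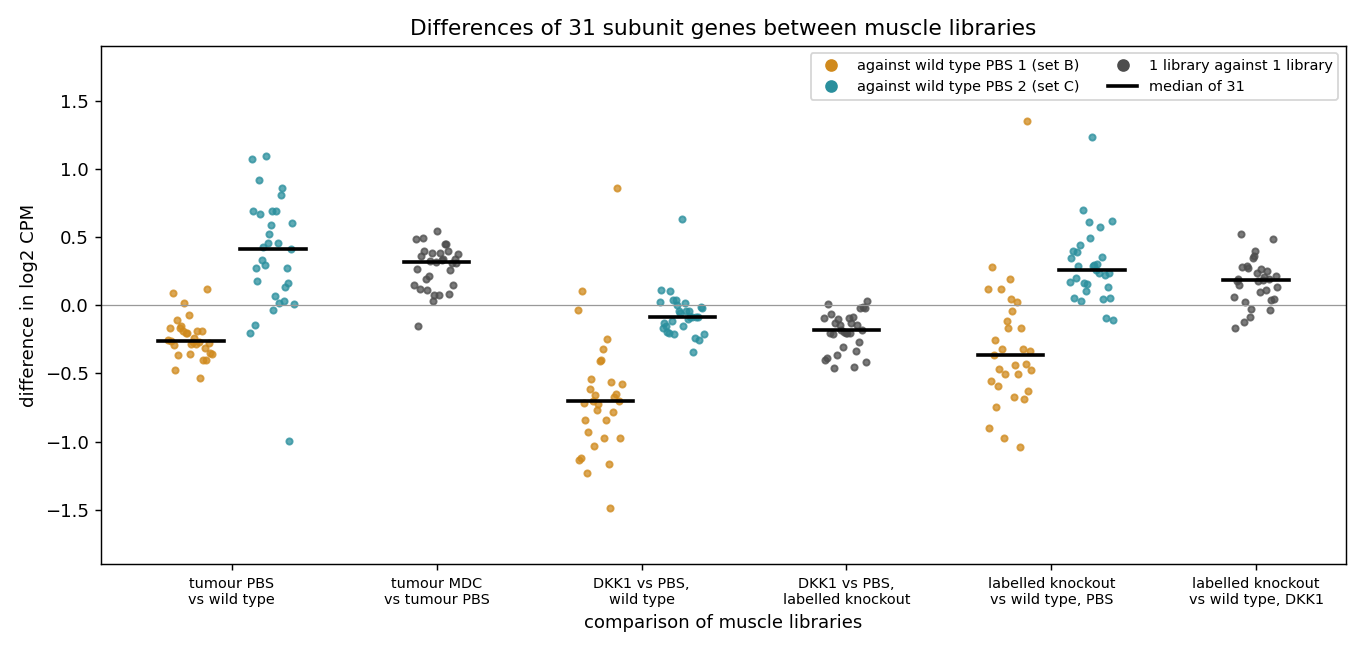
Difference in log2 CPM of each of the 31 genes between muscle libraries, with black bars for the median. Comparisons with wild type PBS are drawn against each wild type library, and their medians differ in sign or size with the reference (-0.27 and 0.41 for tumour PBS, -0.70 and -0.087 for DKK1). Tumour MDC against tumour PBS has 30 of 31 genes above 0, but it is 1 library against 1 and cannot show how far it depends on the reference.

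DKK1 in wild type mice addressed the effect of the Wnt inhibitor itself on muscle. The wild type DKK1 library was below both wild type PBS libraries for 21 of 31 genes, where 30.8% of genes with 100 or more counts were, and above both for 0, where 32.9% were. The median was -0.41, made of -0.70 against library 1 in the other set and -0.087 against library 2 in the same set. Psmb6 stood lowest at 90.6 CPM against 254 and 96.3 CPM (-0.79, SE 0.77), then Psmd4 at 87.2 against 205 and 101 CPM (-0.72, SE 0.74) and Psmc5, an ATPase, at 84.3 against 184 and 94.9 CPM (-0.65, SE 0.72). Most of each difference thus lay against library 1. By 2-fold or more against both, 0 subunit genes and 2.32% of genes with 100 or more counts were higher, and 0 subunit genes and 0.399% were lower. Psmd8 at 180 against 99.4 and 215 CPM (0.30, SE 0.72), Psmb5 at 86.3 against 115 and 55.6 CPM (0.11, SE 0.68) and Psma1 at 67.3 against 68.9 and 66.3 CPM (-0.0069, SE 0.62) lay within the wild type pair. Psmb7 was at 128 CPM against 251 and 130 CPM (-0.49, SE 0.74). Genes of at least the members' level had a median of -0.22, as did the shortest tertile (-0.22). Against library 2 alone, genes of at least the members' level had a median of -0.082, close to the -0.087 of the subunit genes. Of these 2782 genes, 1323 were below both wild type libraries. Scaling by total counts gave a subunit median of 0.078 with 21 genes higher, as it moved the all-genes median from 0.0069 to 0.48. Skeletal muscle markers summed to 116600 CPM in this library, the lowest of the 7, and fibroblast markers to 1818 CPM, the highest, and their part was not tested.

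Fbxo32, the atrogin-1 ligase, was at 93.4 CPM in the wild type DKK1 library against 346 and 216 CPM in the wild type pair, a difference of -1.55 that passed 2-fold against both. Trim63 was at 121 CPM against 247 and 119 CPM (-0.50), and Nfe2l1, which encodes the Nrf1 factor that drives proteasome genes when proteasome activity is low, at 518 CPM against 438 and 806 CPM (-0.20). edgeR's test with Benjamini-Hochberg adjustment gave an adjusted p of 1 for all of these.

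In the libraries labelled knockout, DKK1 against PBS was a comparison within set C. Subunit genes were lower with DKK1 for 29 of 31, where 52% of genes with 100 or more counts were, with a median of -0.18 and genes of at least their level at -0.094. Psma2, an alpha ring gene, was at 53.0 CPM with DKK1 and 72.8 CPM with PBS (-0.46, SE 0.77), Psma4 at 81.2 and 111 CPM (-0.45, SE 0.80) and Psmb7 at 149 and 199 CPM (-0.42, SE 0.83). The smallest differences were in the cap, with Psmd3 at 133 and 130 CPM (0.029), Psmd11 at 76.6 and 76.1 CPM and Psmd8 at 252 and 254 CPM. Psmb6 (-0.33) and Psmb5 (-0.21) lay in between, and 0 genes passed 2-fold, where 2.19% of genes were higher and 0.688% lower by that much. Under total counts the median was -0.054 with 11 genes higher. Slow fibre markers summed to 6302 CPM with DKK1 and 140 CPM with PBS, and their part was not tested. The difference between the DKK1 effects, labelled knockout minus wild type, had a median of 0.20, with 0.52 when wild type library 1 was the reference and -0.093 with library 2. It was of 1 sign against both references upward for 5 genes, Psmc1, Psmd2, Psmd3, Psmd12 and Psmb2 (25.2% of genes with 100 or more counts), and downward for Psma1 (29.4%). Over all members, Psmd4 (0.51, SE 1.09), Psmc1 (0.45, SE 1.01) and Psmb6 (0.45, SE 1.13) were highest and Psmb5 (-0.32, SE 1.04), Psmd8 (-0.31, SE 1.11) and Psmc6 (-0.12, SE 0.997) lowest. edgeR's test of this interaction called 0 genes.

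Under PBS, the library labelled knockout lay between the wild type libraries for most subunit genes. It was above both for 7 of 31, where 25.3% of genes with 100 or more counts were, and below both for Psmb2 and Psmd3, where 24.2% were, with a median of -0.068 (-0.37 against library 1 and 0.26 against library 2). Psmd8 was at 254 CPM against 99.4 and 215 CPM (0.79, SE 0.71), Psmb5 at 131 against 115 and 55.6 CPM (0.71, SE 0.67) and Psmc6, an ATPase, at 114 against 105 and 70.1 CPM (0.41, SE 0.65), above both wild type libraries. Psma7 was at 65.5 CPM against 129 and 60.9 CPM (-0.43, SE 0.70), Psmb2 at 51.1 against 82.3 and 54.7 CPM (-0.39, SE 0.64) and Psmb6 at 123 against 254 and 96.3 CPM (-0.34, SE 0.75). Of these, Psmb2 was below both wild type libraries. Psmb7 was at 199 CPM against 251 and 130 CPM (0.14). Adipocyte markers summed to 139 CPM against 301 and 1202 CPM, and their part was not tested.

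Under DKK1, within set C, the library labelled knockout was above wild type for 26 of 31 subunit genes, where 50.9% of genes were, with a median of 0.19. Genes of at least the members' level had a median of 0.20, and under total counts 8 genes were higher with a median of -0.085. Psmc1 was at 98.7 CPM against 68.7 CPM (0.52, SE 0.76), Psmd8 at 252 against 180 CPM (0.48, SE 0.84) and Psmb5 at 113 against 86.3 CPM (0.39, SE 0.79). Psmb3 (-0.16), Psma2 (-0.12) and Psma7 (-0.086) were lowest, Psmb7 gave 0.21 and Psmb6 0.11. All 11 non-ATPase cap genes were higher, and 10 of 14 core genes were. Slow fibre markers summed to 6302 CPM in the library labelled knockout and 827.5 CPM in wild type, adipocyte markers to 113 and 1010 CPM and fibroblast markers to 829 and 1818 CPM, and their part was not tested.

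The tumour difference was set side by side in the tissues. The kidney difference minus the muscle difference had a median of -0.35, with -0.065 when muscle library 1 was the reference and -0.64 with library 2. The difference was below 0 against both references for 20 of 31 genes, where 31.3% of genes were. Psmd4 (-0.81, SE 1.05), Psma7 (-0.73, SE 1.03) and Psma4 (-0.55, SE 1.05) were lowest, and Psmd8 (0.35, SE 1.10), Psmb2 (0.19, SE 0.92) and Psma1 (-0.028, SE 0.89) highest. edgeR's test with Benjamini-Hochberg adjustment called 0 genes, with an adjusted p of 1 for every subunit gene.

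The inducible subunits took a smaller share of their pairs in muscle than in wild type kidney, and the smallest shares were in the libraries labelled knockout. Psmb8 made up 16.4%, 14.3% and 11.5% of the RPKM of its pair with Psmb5 in wild type 1, tumour PBS and tumour MDC muscle. It made up 10.4% in wild type 2, 9.64% in wild type DKK1, 2.43% in labelled knockout PBS and 3.44% in labelled knockout DKK1. Psmb9 was at 7.65%, 4.87% and 4.25% of its pair with Psmb6 in set B and at 4.61%, 7.58%, 2.31% and 2.30% in set C, and Psmb10 ranged from 3.94% (labelled knockout PBS) to 8.54% (wild type 2) of its pair with Psmb7. For all 3 pairs the libraries labelled knockout thus stood at the low end. Under DKK1 the library labelled knockout held Psmb8 at 5.67 CPM and wild type at 12.9 CPM (-1.18) and Psmb9 at 1.79 and 5.78 CPM (-1.65), both past 2-fold. Under PBS, Psmb8 was at 4.58 CPM against 31.6 and 9.08 CPM (-1.87) and Psmb9 at 2.27 against 16.4 and 3.62 CPM (-1.74), past 2-fold against library 1 alone. edgeR's test with Benjamini-Hochberg adjustment gave an adjusted p of 1 for these, and the unadjusted p of Psmb8 under PBS was 0.0209.

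**Figure D5:**
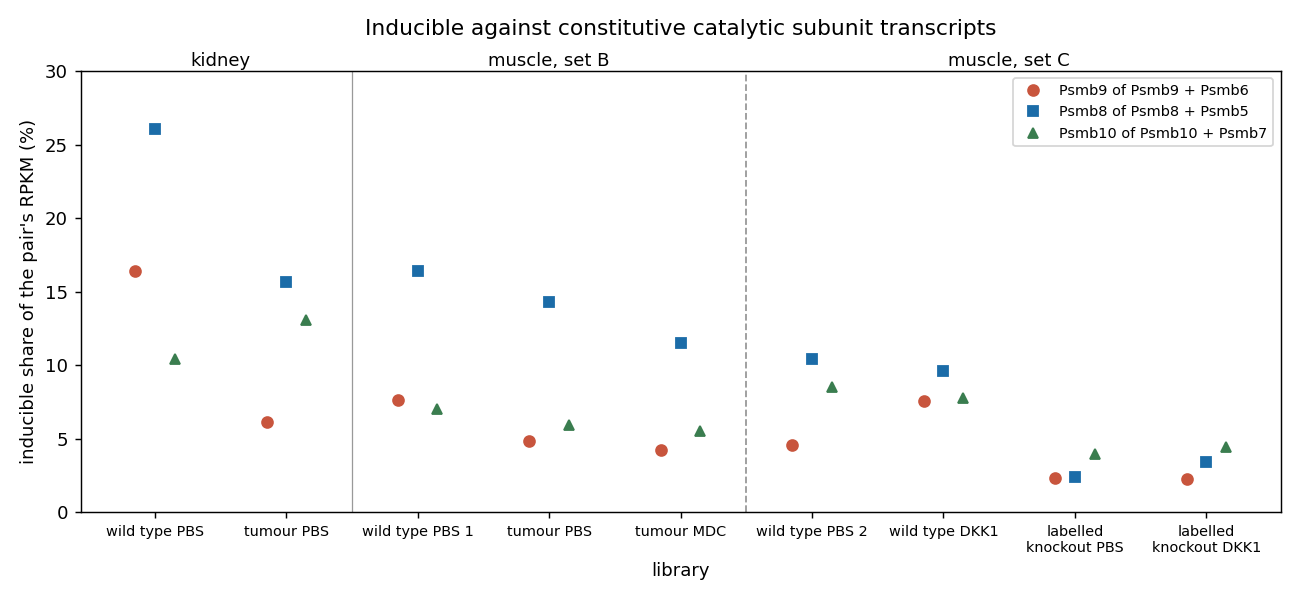
Share of the inducible subunit in the RPKM of its catalytic pair in each library, in percent. Psmb8 reaches 26.1% in wild type kidney and 2.43% in the muscle library labelled knockout PBS, and all 3 shares are lowest in the libraries labelled knockout.

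Genes around the proteasome were followed with the same fits. Of the 5 inducible and PA28 activator genes, 0 were called in any tested comparison, and all 5 were lower in the library labelled knockout than in wild type under both PBS (both references, median -0.89) and DKK1 (median -0.64). The 8 measured assembly chaperone genes had 0 calls, and Psmg2, which helps to assemble the alpha ring, was at 9.28 RPKM in tumour kidney and 24.4 RPKM in tumour muscle (-1.39). Psmd5, a chaperone of the cap base, was at 21.6 and 8.04 RPKM (1.42). Among the 12 receptor, shuttle and further cap genes 6 were lower in tumour kidney than in tumour muscle by 2-fold or more, where 21.7% of genes with 100 or more counts were. Among them was Ecpas (listed as AI314180), a proteasome-binding scaffold, at 10.4 against 33.3 RPKM (-1.68), and 0 of the 12 were called. Of the 10 genes around the Nrf1 factor 0 were called, and Nfe2l1 was at 33.0 RPKM in wild type kidney against 94.8 and 179 RPKM in wild type muscle (-1.98).

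The 10 atrophy-linked ubiquitin ligases gave the calls of these lists. In wild type tissue, Fbxo32 was at 0.802 RPKM in kidney against 52.5 and 33.7 RPKM in muscle (-5.70) and Trim63 at 4.94 against 138 and 68.2 RPKM (-4.28), with adjusted p of 0.00578 and 0.014 by edgeR's test with Benjamini-Hochberg adjustment. In tumour tissue the differences were -6.22 and -5.04, with adjusted p of 0.00906 and 0.0169 by the same test, so 2 of 10 ligases were called lower in kidney in each comparison and 0 higher. Of all genes tested, 4.75% were called lower and 8.45% higher in wild type tissue, and 3.28% lower and 4.9% higher in tumour tissue. In muscle 0 of 10 were called. Fbxo32 was at 609 CPM in tumour MDC muscle and 314 CPM in tumour PBS muscle (0.95), and under DKK1 it reached 384 CPM in the labelled knockout and 93.4 CPM in wild type (2.04, unadjusted p 0.036, adjusted p 1 by edgeR's test). Trim63 was at 205 and 191 CPM in tumour MDC and tumour PBS muscle and at 251 against 121 CPM in the second comparison (1.05). Of the 6 ubiquitin and ubiquitin-activating genes 0 were called. The subunit genes restricted to testis and thymus, Psma8 and Psmb11, had at most 0.154 CPM in any library.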

How the data were processed

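The 9 tables hold, per the labels, RNA sequencing of TRIzol-extracted total RNA. The aligner HISAT2 2.1.0 and the mouse build mm10 are named per the submitters' processing notes. Counting program, annotation and strand setting were not given in the sources used here. The deposited tables give raw counts, a gene length and RPKM values that the authors computed from them, and RPKM recomputed from these counts and lengths differed by at most 5e-04%. The members and lists were chosen with earlier results of these data known. Counts as deposited were tested with edgeR 4.0.16 (R 4.3.3): TMM scaling, filterByExpr with a minimum count of 10, and quasi-likelihood tests with Benjamini-Hochberg adjustment over all genes (15482 in the 7 muscle libraries, 16811 in all 9). The muscle fit had 1 residual degree of freedom, from the wild type PBS pair. The 2 kidney libraries were compared without a test. A log2 difference is that of log2 CPM with a prior count of 2, against the mean of the wild type pair, and its SE is the difference divided by the square root of the F statistic. CPM were scaled within each tissue, and RPKM were scaled by TMM over all 9 libraries. The size rule was a 2-fold difference against each reference library with at least 100 counts in the higher library. Named genes were the 3 highest and 3 lowest in each comparison and the 3 catalytic genes; genes that fall in a count of 5 or fewer were named after their values were seen. Muscle comparisons against wild type PBS share the same control libraries. Alternatives were other scalings, no filter, prior count 0.5, structural RNA rows left out, DESeq2 1.42.0, limma-voom (limma 3.58.1), deposited RPKM and leaving out each wild type library. The edgeR calculation was tested on simulated data.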

Additional observations from a re-analysis of the deposited data

How the results depend on the processing

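No paired analysis was possible because no label ties libraries of different groups to the same animal. Of 104 recomputed medians, 102 stayed within a set bound and 9 took the opposite sign. The bound was the spread of the wild type pair, and for the kidney comparison the width of its counting intervals. The spread of the pair exceeded most of the medians, so a median could change sign and stay within it. Total-count scaling moved the wild type tissue median to 0.0434 and the DKK1 median to 0.0775, and it moved the all-genes median by over 0.1 in 10 of 12 comparisons. The subunit median changed sign in 5 of these 12, and its difference from the all-genes median in 0, with a largest change of 0.025. A change of scaling moves all genes of a library by nearly the same amount. That difference could therefore hardly change, and its stability is no check on the result. In the deposited RPKM the median subunit gene was at 60.3 in tumour kidney, 73.0 in wild type kidney and 76.4 in wild type muscle library 1, against 45.7, 55.8 and 102 after TMM scaling. Without wild type library 1 and without library 2, the medians were 0.41 and -0.27 (tumour PBS), 0.538 and -0.00574 (MDC against wild type), -0.0873 and -0.648 (DKK1), 0.26 and -0.342 (labelled knockout PBS), -0.186 and -0.813 (wild type tissue) and -0.0932 and 0.488 (DKK1 effect, labelled knockout minus wild type). Limiting the members to the 29 in the shortest tertile, chosen after seeing the data, moved none of the 12 medians beyond the spread. These 29 are nearly all of the members, so their medians could hardly leave a bound that wide. The step therefore cannot show what part gene length had. edgeR, DESeq2 and limma-voom called 0 subunit genes under every setting run. The muscle tests rest on 1 pair of libraries, which limits their precision. That pair is 1 library of set B and 1 of set C. The spread used for every muscle test, also within a set, thus includes the difference between the sets. The lack of calls therefore says little about changes within a set.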

Other observations

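Genes that work with the proteasome also differed between the muscle sets, in both directions. The assembly chaperones Psmg1, Psmg2, Psmg3, Psmg4 and Pomp had all set C libraries below all set B libraries (5 of 8 measured chaperones). Pomp, the maturation factor of the core, was at 95.3 to 144 CPM in set B and 53.2 to 77.0 CPM in set C. All 5 inducible and PA28 genes were placed the same way, with summed levels of 152 to 224 CPM against 71.1 to 107 CPM. Of 10 genes around the Nrf1 factor 4 were above (Nfe2l1, Nfe2l2, Mafg and Nploc4) and 0 below. Nfe2l1 was at 438, 383 and 396 CPM in wild type library 1, tumour PBS and tumour MDC, and at 806, 518, 799 and 759 CPM in wild type library 2, wild type DKK1, labelled knockout PBS and labelled knockout DKK1. Among atrophy-linked ligases 6 of 10 were above, with Fbxo40 at 14.6 to 28.8 CPM in set B and 141 to 238 CPM in set C, and Stub1 was below. Over all genes with 100 or more counts, 20.5% were below and 15.9% above. In the shortest tertile of genes by length, 41.4% were below and 7.99% above. The part of gene length in the placing of these lists was not tested. In these comparisons across the sets, set and treatment cannot be told apart outside the wild type pair either.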
